A study of Mus musculus with 8 samples.

Results

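A set of 9 long noncoding RNAs was followed across primary and metastatic mouse prostate tumors. They are Malat1, Neat1, Meg3, H19, Pvt1, Mir17hg, Rian, Mirg and Kcnq1ot1, and they were chosen by name. Of these 9 genes, 5 (Malat1, Neat1, Meg3, H19 and Mir17hg) carried their own symbol in the count tables, which list 38115 genes. Another 3 were found by Ensembl identifier under another name: Pvt1 as AC126552.1, Rian as AC152063.2 and Mirg as mmu-mir-410. The annotation release behind these 3 names is not known, so the counts may not cover the whole transcripts, Mirg in particular. Kcnq1ot1 was not analysed here, so 8 of the 9 genes were measured.

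The tumors came from Myc-CaP cells, a mouse prostate cancer line with a prostate-directed Myc transgene, injected into the anterior prostate lobes of male FVB mice. The androgen sensitive tumors (AS) grew from Myc-CaP/AS cells and the castrate resistant tumors (CR) from Myc-CaP/CR cells. The mice were either intact or castrated by surgery beforehand, and the labels do not say which for a given tumor. Total RNA was sequenced from 4 primary and 4 metastatic tumors, with 2 AS and 2 CR tumors in each, named AS1, AS2, CR1 and CR2. The labels call each metastasis matched but do not say to which primary tumor, so equal numbers here do not mark a pair.

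All 8 tumors share the Myc-CaP background and the FVB host. Each phenotype is represented by 1 cell line, so phenotype and cell line cannot be told apart. Total counts were between 61237285 and 91886163 in AS tumors and between 20905806 and 76887592 in CR tumors. Primary CR1 lay within the AS range and the other CR tumors lay below it, so depth moved in part with phenotype too. The site of the metastases is not given, and nothing says that the tumors of a group came from separate animals, so the p-values measure the spread between these tumors only. Among the prostate epithelial markers, Epcam did not exceed 0.282 counts per 1000000 (CPM, counts over the library size scaled by TMM factors) and Krt18 did not exceed 0.423 CPM. Krt8, at 36.8 to 720.8 CPM, and Cldn3, at 88.8 to 158.0 CPM, were present in every tumor.

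A long noncoding RNA acts as RNA, or through the act of its own transcription, and makes no known protein. Malat1 and Neat1 are neighbors that stay in the nucleus, Malat1 in splicing-factor speckles and Neat1 as the scaffold of paraspeckles. H19, Meg3, Rian and Mirg are imprinted and are transcribed from the maternal chromosome only, H19 beside the growth factor gene Igf2 and the other three within the Dlk1-Dio3 domain. Pvt1 lies downstream of the oncogene Myc, and Mir17hg is the host transcript of the miR-17-92 microRNA cluster, a target of Myc.

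In the mm10 assembly with GENCODE M21 annotation, Malat1 (ENSMUSG00000092341) lies at chr19:5795690-5802672 and Neat1 (ENSMUSG00000092274) at chr19:5824708-5845478, both on the minus strand with 1 annotated exon block. H19 (ENSMUSG00000000031) is at chr7:142575529-142578143 on the minus strand. Meg3 (ENSMUSG00000021268), Rian (ENSMUSG00000097451) and Mirg (ENSMUSG00000097391) follow each other on the plus strand of chromosome 12, at chr12:109541001-109571726, chr12:109603940-109661716 and chr12:109729764-109749460. Pvt1 (ENSMUSG00000097039) spans chr15:62037986-62378096 and Mir17hg (ENSMUSG00000089726) spans chr14:115042879-115046727, both on the plus strand. Counts were made per gene, and whether they used strand is not stated. The transcript AC152063.3, which runs opposite to Meg3, had 0 to 7 counts, and the microRNA and snoRNA genes listed inside the members had 0 to 2 counts each.

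Several members are the source of microRNAs, and mature sequences from Mir17hg, H19 and Mirg are shown because host counts are read here without any measurement of the microRNAs themselves. The sequences are from RefSeq (GRCm38.p6), are written from the 5′ end, and lie within annotated exons of the host on its strand. Capitals mark the seed, bases 2 to 8, which pairs with target messages. The 6 microRNAs of Mir17hg hold 4 distinct seeds: miR-17-5p and miR-20a-5p share a seed, miR-19a-3p and miR-19b-3p share another, and miR-18a-5p and miR-92a-3p have their own.
miR-17-5p, chr14:115043684-115043706: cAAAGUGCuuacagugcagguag
miR-20a-5p, chr14:115044183-115044205: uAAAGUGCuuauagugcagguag
miR-18a-5p, chr14:115043867-115043889: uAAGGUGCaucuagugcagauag
miR-19a-3p, chr14:115044048-115044070: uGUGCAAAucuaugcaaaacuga
miR-19b-3p, chr14:115044358-115044380: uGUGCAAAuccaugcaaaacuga
miR-92a-3p, chr14:115044476-115044496: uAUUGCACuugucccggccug
miR-675-5p of H19, chr7:142577112-142577133: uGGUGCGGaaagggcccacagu
miR-675-3p of H19, chr7:142577078-142577099: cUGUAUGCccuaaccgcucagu
miR-410-3p of Mirg, chr12:109743764-109743784: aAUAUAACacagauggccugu
The hairpins that hold these microRNAs had 0 to 2 counts in every tumor, so all values below are those of the long host transcripts.

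The members covered several orders of magnitude. Per kilobase of annotated exon and averaged over the 8 tumors, Malat1 stood at 778.3 CPM, Neat1 at 16.7 CPM, H19 at 8.78 CPM, Mir17hg at 3.62 CPM and Pvt1 at 1.0 CPM. Meg3 and Rian both averaged 0.0432 CPM per kilobase, and Mirg averaged 0.00807 CPM per kilobase. The ranges over tumors of Malat1, 444.9 to 1033 CPM per kilobase, and of Neat1, 9.96 to 27.7, did not overlap. H19 ran from 0.411 to 51.7 CPM per kilobase and so overlapped Neat1, Mir17hg and Pvt1. Its place rested on metastatic AS1: without that tumor its mean was 2.65 CPM per kilobase, and its median over all 8 was 1.69, both below the Mir17hg mean. Mir17hg, 2.31 to 5.30 CPM per kilobase, stayed above Pvt1, 0.775 to 1.40. Meg3, 0.00780 to 0.152 CPM per kilobase, overlapped both Rian, 0.0239 to 0.0799, and Mirg, 0 to 0.0175. The spread over tumors differed between members too. The highest tumor exceeded the lowest by 1.81-fold for Pvt1, 2.30-fold for Mir17hg, 2.32-fold for Malat1, 2.78-fold for Neat1, 3.34-fold for Rian, 19.5-fold for Meg3 and 125.6-fold for H19.

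**Figure D1:**
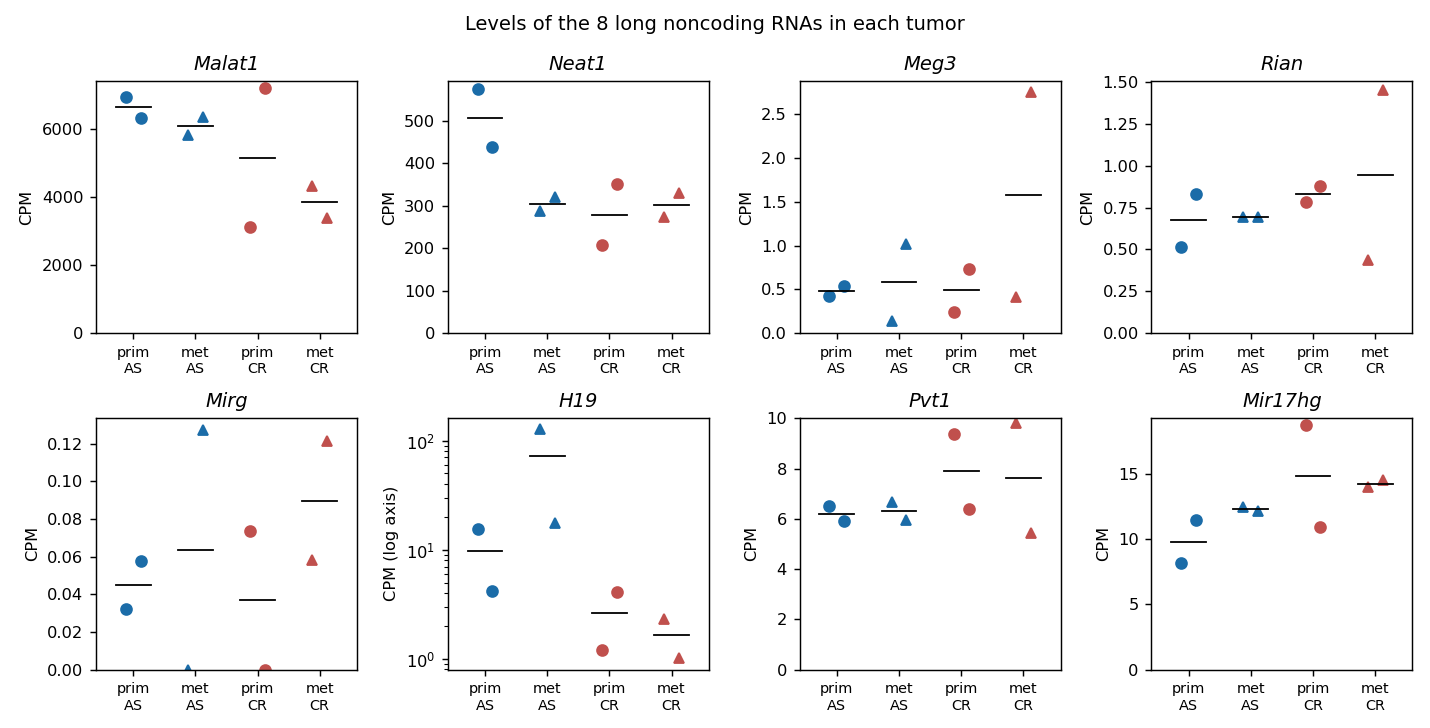
CPM of each of the 8 long noncoding RNAs in each tumor, by group of 2 tumors (circles primary, triangles metastatic, blue AS, red CR; bars are the arithmetic mean of the 2 tumors). The H19 panel has a log axis, and the others start at 0. H19 reaches 127.1 CPM in metastatic AS1 and stays at or below 4.10 CPM in the CR tumors.

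Malat1 was among the 24 genes with the most counts in each of the tumors and took 0.329% to 0.706% of all counts. In AS tumors it was at 6931 and 6342 CPM in the primary and at 5821 and 6360 CPM in the metastatic tumors. In CR tumors it was at 3107 and 7210 CPM in the primary and at 4324 and 3385 CPM in the metastatic tumors. The AS tumors lay close together, while the CR tumors held both the lowest and the highest value of the 8. The mean was 6364 ± 453.5 CPM (SD, n = 4) in AS and 4507 ± 1876 CPM (SD, n = 4) in CR tumors. In the quasi-likelihood fit of edgeR, with p-values adjusted by Benjamini-Hochberg over all genes tested, Malat1 had a log2 fold change of -0.51 in CR over AS (SE 0.27, adjusted p = 0.266) and of -0.24 in metastatic over primary tumors (SE 0.32, adjusted p = 0.997). Primary CR1 and primary CR2 differed from each other by more than either phenotype mean differed from the other.

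Neat1 was at 575.1 and 437.1 CPM in the primary AS tumors and at 288.4 and 319.4 CPM in the metastatic AS tumors. In CR tumors it was at 206.8 and 350.4 CPM in the primary and 273.9 and 330.5 CPM in the metastatic tumors. Both primary AS tumors were above the other 6 tumors, which overlapped one another. Over all tumors the log2 fold change was -0.43 in CR over AS (SE 0.25, edgeR adjusted p = 0.30) and -0.35 in metastatic over primary (SE 0.29, edgeR adjusted p = 0.997). Within primary tumors Neat1 had a log2 fold change of -0.86 in CR over AS (SE 0.31, edgeR unadjusted p = 0.0242, adjusted p = 0.275), and within metastatic tumors it was -0.01 (SE 0.31, edgeR adjusted p = 0.991). Within AS tumors the metastatic over primary log2 fold change was -0.74 (SE 0.31, edgeR unadjusted p = 0.0452, adjusted p = 1.0). The interaction of tumor type and phenotype was 0.85 on the log2 scale (SE 0.44, edgeR unadjusted p = 0.0872, adjusted p = 0.964), so a difference between phenotypes in the Neat1 change was not shown.

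Neat1 was set against Malat1 within each tumor, which removes the library scaling. The ratio per kilobase was lowest in primary CR2, at 0.0163, and highest in metastatic CR2, at 0.0328. The log2 ratio differed by 0.12 between CR and AS tumors (exact permutation p = 0.686) and by -0.07 between metastatic and primary tumors (exact permutation p = 0.83). Over the 8 tumors Malat1 and Neat1 had a Pearson r of 0.68 (permutation p = 0.0582, adjusted over 8 gene pairs 0.189) and a Spearman rho of 0.71 (permutation p = 0.0576, adjusted 0.460). Without the 2 tumors farthest from the Malat1 median, primary CR1 and metastatic CR2, r was 0.63. With 4 tumors a phenotype, no correlation within a phenotype was computed.

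The proteins that build the same nuclear bodies were listed as well. Of 18 paraspeckle proteins, all tested, 1 was higher and 1 lower in CR than in AS tumors, a share near the 10.1% of all genes called, with a list median log2 fold change of 0.26 beside 0.00 over all genes tested. The higher gene was Ewsr1, a FET family RNA-binding protein, with a log2 fold change of 0.61 (SE 0.14, edgeR adjusted p = 0.0335), and the lower was Hnrnph3, an hnRNP protein, with -0.95 (SE 0.26, edgeR adjusted p = 0.0497). Both calls were lost in most of the fits that left out a tumor, with edgeR adjusted p up to 0.142 for Ewsr1 and 0.154 for Hnrnph3. Nono, a core paraspeckle protein that binds Neat1, had a log2 fold change of 0.55 (SE 0.16, edgeR adjusted p = 0.0632). It was at 100.4 to 158.4 CPM in AS and 167.6 to 232.0 CPM in CR tumors, without overlap, as in 17.5% of genes tested. Its partner Sfpq had a log2 fold change of 0.24 (SE 0.19, edgeR adjusted p = 0.461). Of 15 nuclear speckle proteins and Malat1 partners, 0 were called by edgeR in either direction (list median -0.05). Between metastatic and primary tumors, 0 genes of either list were called.

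H19, an imprinted fetal RNA that is mostly silenced after birth, varied most of the 7 members with counts in every tumor. It was at 15.3 and 4.19 CPM in the primary AS tumors and at 127.1 and 17.4 CPM in the metastatic AS tumors. In the primary CR tumors it was at 1.21 and 4.10 CPM, and in the metastatic CR tumors at 2.33 and 1.01 CPM. All AS tumors were above all CR tumors, narrowly for primary AS2 against primary CR2, and metastatic AS1 stood far above the rest. The counts behind these values were 291 to 9907 in AS and 25 to 98 in CR tumors. The mean was 41.0 ± 57.7 CPM (SD, n = 4) in AS and 2.16 ± 1.42 CPM (SD, n = 4) in CR tumors.

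In the fit with tumor type as a covariate, H19 had a log2 fold change of -3.67 in CR over AS (SE 1.03, 95% interval -6.00 to -1.35), that is 12.8-fold lower in CR. The unadjusted p was 0.00592 and the adjusted p over 18889 genes was 0.0550 by edgeR's quasi-likelihood test, so H19 missed the threshold of 0.05. On the log2(CPM + 1) scale the phenotypes differed by -2.84 (exact two-sided permutation p = 0.0286, the smallest that 4 against 4 tumors allow). This test and the edgeR fit by phenotype take the tumors as independent, although the labels match each metastasis to a primary tumor. If the 2 matched sets of a phenotype were the units, no permutation p below 0.333 could be reached. H19 was the 1 member of 8 whose AS and CR tumors did not overlap, against 17.5% of all genes tested in either direction and 9.51% with AS higher. Without metastatic AS1 the log2 fold change was -2.56 (edgeR adjusted p = 0.0706). The call depended on the processing: DESeq2 gave -3.61 with an adjusted p of 0.00467, and 6 of 15 alternatives in all put H19 past the threshold.

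By tumor type alone, H19 had a log2 fold change of 2.57 in metastatic over primary tumors (SE 1.34, edgeR adjusted p = 0.997), which fell to 0.18 without metastatic AS1. The log2 fold change was 1.32 with phenotype as a covariate, and 0.77 to 1.29 with the 4 possible pairings as blocks. Within metastatic tumors it was -5.41 in CR over AS (SE 1.17, edgeR unadjusted p = 0.00162, adjusted p = 0.0824), and -3.41 without metastatic AS1 (edgeR adjusted p = 0.322). Within primary tumors it was -1.95 (SE 1.02, edgeR adjusted p = 0.450). Within AS tumors the metastatic over primary log2 fold change was 2.89 (SE 1.02, edgeR unadjusted p = 0.0217, adjusted p = 1.0), and 0.83 without metastatic AS1. Within CR tumors it was -0.58 (SE 1.05, edgeR adjusted p = 0.895). The interaction was -3.47 on the log2 scale (SE 1.45, edgeR unadjusted p = 0.0430, adjusted p = 0.964), and -1.47 without metastatic AS1.

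Tissue markers were set beside H19. In bulk tumors a lower level can come from fewer cells of a type or from less RNA per cell, which cannot be told apart. Metastatic AS1 had the highest summed level of 10 fibroblast markers, 213.4 CPM against 74.8 to 126.1 CPM in the other tumors, and of 10 skeletal muscle markers, 24.3 CPM against 5.22 to 20.3 CPM. Postn alone made up 114.6 CPM of the fibroblast sum there and Tnnt3 13.2 CPM of the muscle sum. Without these genes metastatic AS1 had a fibroblast sum of 98.8 CPM and a muscle sum of 11.2 CPM, below the 117.9 and 19.8 CPM of primary CR1, the highest in both. In the other marker lists examined, metastatic AS1 ranked between 2 (such as macrophage and leukocyte markers) and 7 (such as smooth muscle markers) from the top. Postn (log2 fold change -2.02, SE 0.50, edgeR adjusted p = 0.0370) and Tnnt3 (-2.15, SE 0.40, edgeR adjusted p = 0.0163) were each the 1 gene of their list called by phenotype, both lower in CR. These were 1 of 10 fibroblast and 1 of 7 muscle markers tested, beside 10.1% of all genes called. None of the 10 fibroblast markers and 1 of the 10 muscle markers was at 0 in metastatic AS1. Besides Tnnt3, only Tnni2, at 8.88 CPM, exceeded 0.834 CPM among the muscle markers there. Ckm was at 0.359 CPM, and Myh1, Myh4 and Pygm were at or below 0.0385 CPM. By phenotype, the sum of 8 hepatocyte markers was 3721 to 10220 CPM in AS and 96.5 to 1946 CPM in CR tumors, and 3 of the 4 tested were lower in CR. Nearly all of that sum was Fgb, the fibrinogen beta chain, at 3713 to 10170 CPM in AS tumors, while Alb, the defining hepatocyte transcript, was at 0.187 to 1.01 CPM there. The 7 lung epithelial markers summed to 50.0 to 85.7 CPM in AS and 10.9 to 33.6 CPM in CR tumors, mostly Hopx. In the other direction, 8 prostate epithelial markers summed to 152.7 to 353.2 CPM in AS and 423.9 to 1074 CPM in CR tumors, without overlap. Krt8, at 36.8 to 167.8 CPM in AS and 260.3 to 720.8 CPM in CR tumors, carried most of the difference. Without Krt8 the sums were 115.9 to 185.4 CPM in AS and 146.0 to 353.0 CPM in CR tumors, which overlapped. Cldn3 overlapped as well, at 99.7 to 153.4 CPM in AS and 88.8 to 158.0 CPM in CR tumors. Krt19, at 1.16 to 4.71 CPM in AS and 15.8 to 134.1 CPM in CR tumors, was the 1 gene called of the 8 tested (log2 fold change 3.64, SE 0.74, edgeR adjusted p = 0.0208). A list of 8 lymphocyte markers summed to 0.726 to 1.26 CPM in AS and 0.195 to 0.664 CPM in CR tumors. The part of these markers in the H19 result was not tested.

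**Figure D2:**
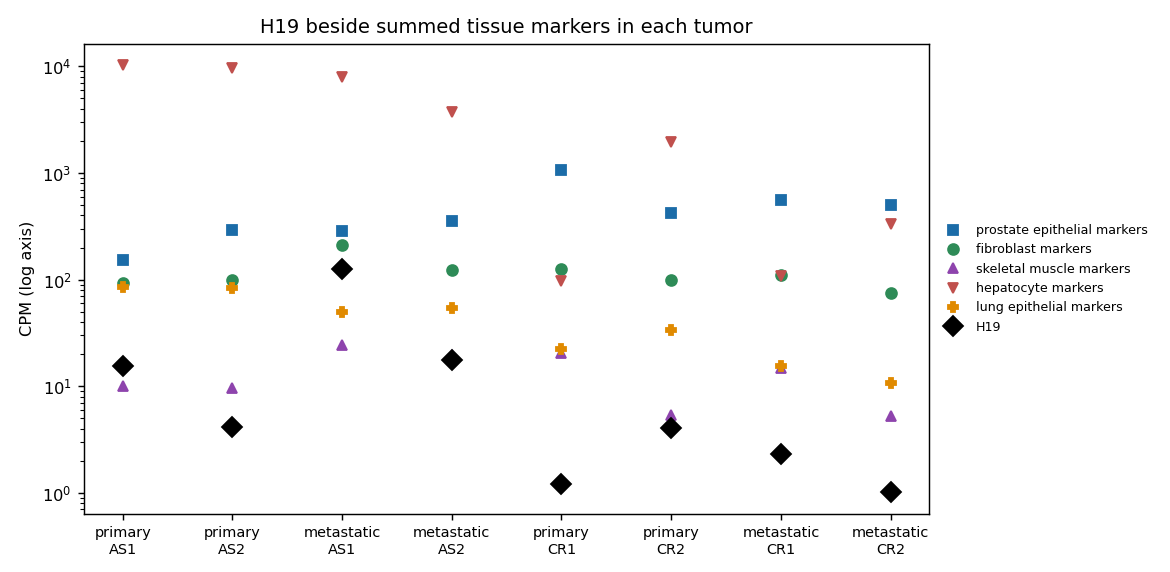
H19 (black diamonds) and the summed CPM of 5 tissue marker lists in each tumor, on a log axis. H19 is highest in metastatic AS1, as are the fibroblast and skeletal muscle sums, which rest there on Postn (114.6 CPM) and Tnnt3 (13.2 CPM). The hepatocyte and lung sums, mostly Fgb and Hopx, are higher in the AS tumors. The prostate epithelial sum is higher in the CR tumors, but the phenotypes overlap without Krt8.

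Igf2, the growth factor gene that shares enhancers with H19 and is expressed from the other parental chromosome, was low throughout. It had 2 to 34 counts a tumor and lay at 0.0645 and 0.0288 CPM in primary AS, 0.436 and 0.304 CPM in metastatic AS, 0.221 and 1.22 CPM in primary CR, and 0.116 and 0.486 CPM in metastatic CR tumors. The AS and CR tumors overlapped, and Igf2 had a log2 fold change of 1.56 in CR over AS (SE 1.06, edgeR adjusted p = 0.376). Within primary tumors it was 3.83 (SE 1.14, edgeR unadjusted p = 0.00978, adjusted p = 0.215). Within metastatic tumors it was -0.33 (edgeR adjusted p = 0.879). Metastatic over primary, it was 2.95 within AS tumors (SE 1.11, edgeR unadjusted p = 0.0284). Within CR tumors this was -1.22 (edgeR adjusted p = 0.752). The interaction was -4.16 (SE 1.51, edgeR unadjusted p = 0.0241, adjusted p = 0.964). None passed the threshold, and the 2 primary AS tumors had 4 and 2 counts. Over the 8 tumors H19 and Igf2 had a Pearson r of 0.01 (permutation p = 0.976, Spearman rho = -0.14, permutation p = 0.752, r = -0.21 without the 2 metastatic AS tumors).

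Per kilobase, H19 exceeded Igf2 in every tumor, by 133.5-fold to 677.9-fold in AS and by 4.85-fold to 46.5-fold in CR tumors. The log2 ratio was 8.50 ± 1.04 (SD, n = 4) in AS and 3.61 ± 1.40 (SD, n = 4) in CR tumors, without overlap. The difference of -4.88 had an exact permutation p of 0.0286, the smallest possible, and 0.172 after adjustment over 6 ratio tests. It stayed between -5.53 and -4.44 with any 1 tumor left out. Between metastatic and primary tumors the ratio differed by 0.03 (exact permutation p = 1.0). The Igf2 counts under these ratios were as low as 2 in primary AS2, so counting error in Igf2 is part of their spread.

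**Figure D3:**
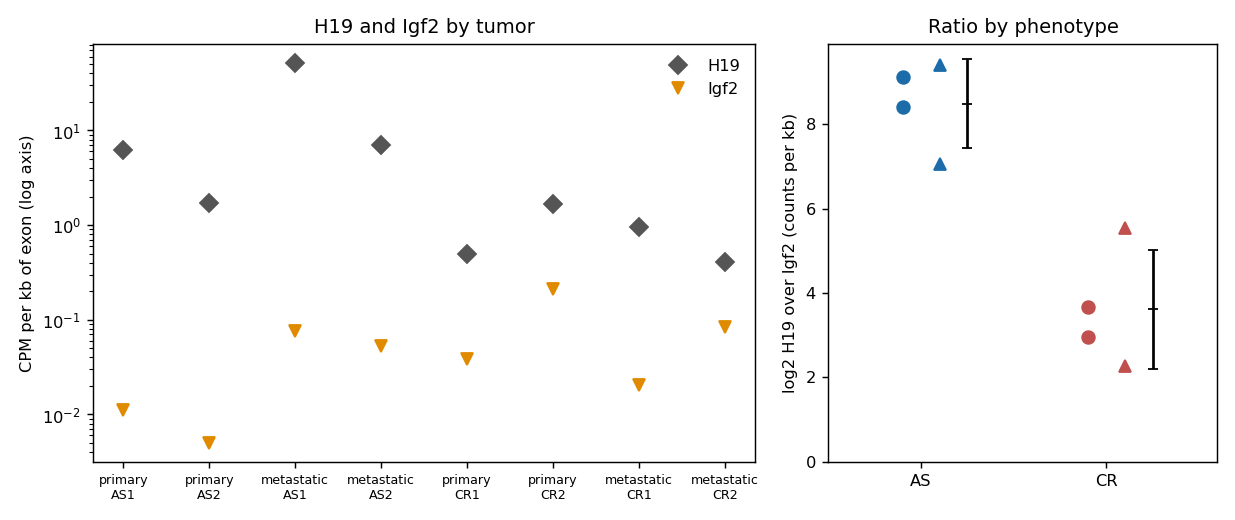
Left, CPM per kilobase of exon of H19 and Igf2 in each tumor on a log axis. Right, the log2 ratio of H19 to Igf2 by phenotype (circles primary, triangles metastatic, bars mean and SD of 4 tumors). The ratio is 7.06 to 9.40 in AS and 2.28 to 5.54 in CR tumors.

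Of the 17 genes listed for the H19-Igf2 and Kcnq1 domains, 12 were tested by phenotype, and 1 was higher and 0 lower in CR tumors, beside 10.1% of all genes called (list median -0.05 beside 0.00 over all genes tested). The higher gene was Cdkn1c, a maternally expressed inhibitor of cyclin-dependent kinases in the domain that Kcnq1ot1 silences on the paternal chromosome. Cdkn1c was at 0.363 to 0.662 CPM in AS and 0.931 to 2.24 CPM in CR tumors, without overlap, as in 17.5% of genes tested. Its log2 fold change in CR over AS was 1.59 (SE 0.41, edgeR adjusted p = 0.0416). The call was lost in 8 of 14 alternatives, among them 7 of the 8 fits without a tumor (edgeR adjusted p up to 0.153). Kcnq1, the potassium channel gene that contains Kcnq1ot1, was at 0.244 to 0.676 CPM in all tumors with a log2 fold change of -0.06 (SE 0.44, edgeR adjusted p = 0.943). Phlda2, a growth-restraining gene of the same domain, had 0 to 4 counts and was not tested.

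Meg3, Rian and Mirg, the maternally expressed RNAs of the Dlk1-Dio3 domain, were low in every tumor. Meg3, the RNA at the start of the domain, was at 0.419 and 0.532 CPM in primary AS, 0.141 and 1.02 CPM in metastatic AS, 0.246 and 0.732 CPM in primary CR, and 0.407 and 2.75 CPM in metastatic CR tumors, from 11 to 104 counts. Metastatic CR2 was highest and metastatic AS1 lowest, and both comparisons overlapped. The log2 fold change was 0.72 in CR over AS (SE 0.79, edgeR adjusted p = 0.597) and 1.20 in metastatic over primary (SE 0.81, edgeR adjusted p = 0.997). Without metastatic CR2 these were -0.26 and 0.17, so their size, and the direction by phenotype, rested on that tumor.

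Rian, the host of a snoRNA cluster, was at 0.516 and 0.834 CPM in primary AS, 0.693 and 0.696 CPM in metastatic AS, 0.787 and 0.879 CPM in primary CR, and 0.436 and 1.46 CPM in metastatic CR tumors, from 15 to 71 counts. Its lowest and highest values were both in metastatic CR tumors. The log2 fold change was 0.36 in CR over AS (SE 0.41, edgeR adjusted p = 0.612) and 0.13 in metastatic over primary (SE 0.43, edgeR adjusted p = 0.997). Both values turned below 0 without metastatic CR2, to -0.07 and -0.29.

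Mirg, the host of the distal microRNA cluster of the domain, had 2, 4, 0 and 13 counts in primary AS1, primary AS2, metastatic AS1 and metastatic AS2, and 6, 0, 2 and 3 counts in primary CR1, primary CR2, metastatic CR1 and metastatic CR2. It passed neither low-count filter and was not tested by edgeR. Exact permutation tests of log2(CPM + 1) gave p = 0.80 by phenotype and p = 0.343 by tumor type. The count of 0 in primary CR2 allows up to 0.146 CPM, taking 3 counts as the limit, which is above the highest Mirg value of 0.128 CPM. A difference in Mirg was not detectable at this depth.

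Within tumors, the ratio of Rian to Meg3 per kilobase was lowest in metastatic CR2, at 0.525, and highest in metastatic AS1, at 4.87. The log2 ratio differed by -0.39 between CR and AS (exact permutation p = 0.600) and by -0.49 between metastatic and primary tumors (exact permutation p = 0.543). Meg3 and Rian had a Pearson r of 0.78 over the 8 tumors (permutation p = 0.0430, adjusted over 8 pairs 0.189) and a Spearman rho of 0.62 (permutation p = 0.115, adjusted 0.460). Leaving out the 2 tumors farthest from the Meg3 median, metastatic AS2 and metastatic CR2, narrows the range of Meg3, and r was then 0.26. That alone can lower r, and how far the relation rested on those tumors was not tested. The values for Meg3 with Mirg (r = 0.65, permutation p = 0.0707, -0.11 without the same 2 tumors) and Rian with Mirg (r = 0.38, permutation p = 0.376) are given beside it. H19 and Meg3, from different domains, had an r of -0.43 (permutation p = 0.272).

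The paternally expressed protein-coding genes of the domain were as low as the RNAs. Dlk1, a Notch-related membrane protein, had 0 to 12 counts, Rtl1, a retrotransposon-derived gene, 0 to 19, and Dio3, a thyroid hormone deiodinase, 0 to 35. Of 19 listed genes of the domain found in the tables, 4 were tested by phenotype and 2 by tumor type, and edgeR called 0 in either. Among 38 other imprinted genes, 35 were found and 26 tested by phenotype, of which 0 were higher and 1 was lower in CR tumors, beside 10.1% of all genes called. That gene, Mcts2, an imprinted retrogene, was at 10.1 to 11.7 CPM in AS and 2.75 to 5.57 CPM in CR tumors (log2 fold change -1.37, SE 0.22, edgeR adjusted p = 0.00969).

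Pvt1 varied least of the 7 members with counts in every tumor. It was at 6.50 and 5.90 CPM in primary AS, 6.66 and 5.97 CPM in metastatic AS, 9.38 and 6.40 CPM in primary CR, and 9.80 and 5.42 CPM in metastatic CR tumors. Primary CR1 and metastatic CR1 were above the rest, and metastatic CR2 was lowest. The log2 fold change was 0.31 in CR over AS (SE 0.23, edgeR adjusted p = 0.418). Between metastatic and primary tumors it was -0.002 (SE 0.26, 95% interval -0.58 to 0.58, edgeR adjusted p = 1.0), and its sign turned with the scaling.

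Mouse Myc, the neighbor of Pvt1, had a log2 fold change of 0.60 in CR over AS (SE 0.19, edgeR adjusted p = 0.0730). It was at 4.05 to 4.30 CPM in AS and 5.29 to 6.89 CPM in CR tumors, without overlap, as in 17.5% of genes tested. This is the endogenous mouse gene as the tables name it, and how reads of the Myc transgene were assigned is not given. Pvt1 and Myc had a Pearson r of 0.38 over the 8 tumors (permutation p = 0.364, Spearman rho 0.19, permutation p = 0.665). Without primary CR1 and metastatic CR1 the r was -0.25. Of 9 listed neighbors of Pvt1, 4 were tested by phenotype, and edgeR called 0 of them.

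Mir17hg was at 8.16 and 11.4 CPM in primary AS, 12.5 and 12.1 CPM in metastatic AS, 18.7 and 10.9 CPM in primary CR, and 14.0 and 14.5 CPM in metastatic CR tumors. Primary CR1 was highest and primary AS1 lowest, and in 13 of the 16 pairs of a CR with an AS tumor the CR tumor was higher. The log2 fold change was 0.41 in CR over AS (SE 0.22, 95% interval -0.08 to 0.89, edgeR adjusted p = 0.265) and 0.13 in metastatic over primary (SE 0.26, edgeR adjusted p = 0.997). Mcm7, a replication helicase subunit whose gene hosts the related miR-106b-25 cluster, was at 20.5 to 35.5 CPM in AS and 25.5 to 56.0 CPM in CR tumors (log2 fold change 0.51, SE 0.25, edgeR adjusted p = 0.234). Of the 14 paralog hosts and genes listed for miR-17-92, Mcm7 was the 1 that passed the filter. Pvt1 and Mir17hg had a Pearson r of 0.50 (permutation p = 0.225), which became -0.62 without primary CR1 and metastatic CR1.

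Across the members, edgeR called 0 of 7 tested in any of the 7 comparisons. The background differed widely. Between metastatic and primary tumors, 0% of 17104 genes were called (459 at an unadjusted p under 0.05, none of them a member, and 0 by DESeq2). Between CR and AS tumors 10.1% of 18889 genes were called, 899 higher and 1000 lower in CR. The interaction called 0% (517 at an unadjusted p under 0.05, H19 among them, and 2 by DESeq2). The metastatic over primary contrast called 0% within AS tumors (462 at an unadjusted p under 0.05, among them H19 and Neat1, and 11 by DESeq2). The same contrast called 0% within CR tumors (1463 at an unadjusted p under 0.05, no member, and 14 by DESeq2). The CR over AS contrast called 0.296% within primary and 0.360% within metastatic tumors. No member separated metastatic from primary tumors without overlap, as 1.67% of all genes did.

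**Figure D4:**
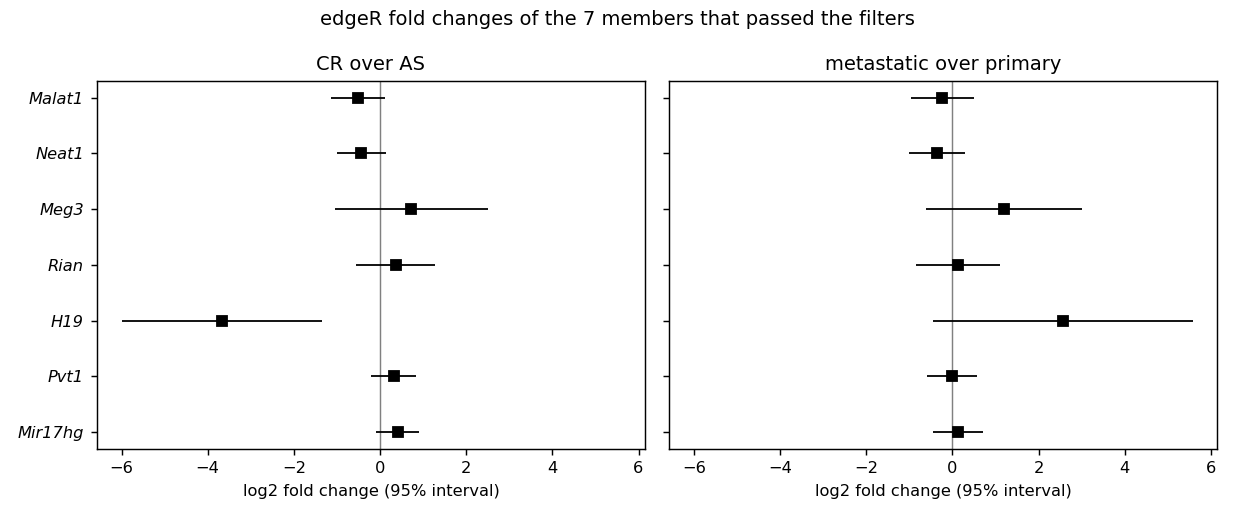
edgeR log2 fold changes with 95% intervals of the 7 members that passed the filters, for CR over AS (left) and metastatic over primary tumors (right). The H19 interval on the left, -6.00 to -1.35, is the 1 of 14 that leaves out 0, and its adjusted p was 0.0550.

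Among 42 other long noncoding RNAs listed, 30 were found and 23 tested by phenotype, of which 2 were higher and 1 was lower in CR tumors, beside 10.1% of all genes called. Snhg20, a snoRNA host gene, was at 44.7 to 74.8 CPM in AS and 90.9 to 223.3 CPM in CR tumors (log2 fold change 1.49, SE 0.33, edgeR adjusted p = 0.0267). Snhg15, another, had a log2 fold change of 0.96 (SE 0.25, edgeR adjusted p = 0.0465), and Mir22hg, the host of miR-22, had -0.99 (SE 0.20, edgeR adjusted p = 0.0208). Each of these 3 calls was lost in 6 or more of the fits that left out a tumor or changed the scaling. Between metastatic and primary tumors 0 of 20 tested were called.

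The genes most like each member over the 8 tumors were sought among 12569 genes with a mean of at least 100 counts, by Pearson r of log2(CPM + 1), as a description. They were Fut11 for Malat1 (r = 0.97), 9930104L06Rik for Neat1 (0.97), Gm13399 for Meg3 (0.97), Fbxo30 for H19 (0.92), Tdrd9 for Pvt1 (0.99), Morf4l2 for Mir17hg (0.98) and Maoa for Rian (0.97). The 8 points share their libraries, and each value is the highest over all genes searched.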

How the data were processed

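RNA sequencing counts of 8 tumors were analysed, 2 in each group of tumor type and phenotype as GEO's labels give them. The authors depleted ribosomal RNA, made stranded libraries, sequenced both ends over 101 bases, aligned the reads to mm10, kept those with a single location and up to 2 mismatches, and deposited raw counts per gene. Their methods name Bowtie, and the submitters' processing notes name CASAVA 1.8.2 and TopHat2 2.0. The counting tool and annotation release are not given in the sources used here. TMM and DESeq came after the deposited counts.

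Identifiers were matched to GENCODE M21, which held 36343 of the 38115. Counts were filtered by filterByExpr, scaled by TMM and tested by edgeR 4.0.16 (R 4.3.3) with the quasi-likelihood test and Benjamini-Hochberg adjustment (threshold 0.05). Tumor type was fitted alone, phenotype with tumor type as a covariate, and the interaction and within-group contrasts in a fit of all 4 groups. Tests were checked on simulated counts. Of 2-fold changes, 16% were recovered by tumor type and 14% by phenotype, and of 4-fold changes 92% and 88%. Most changes of 2-fold would thus be missed. Single values were tested by exact two-sided permutation (scipy 1.17.1) of log2(CPM + 1), with a pseudocount of 1. Intervals are 95%, and limits for a count of 0 take 3 counts and cover counting error only. DESeq2 1.42.0, other scalings, filters and pseudocounts, blocks for the 4 ways to pair each metastasis with a primary tumor, and leaving out each tumor were alternatives. Figures used matplotlib 3.10.9.

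The members and gene lists were chosen with earlier results of these data known. The rule for names took all members, fixed partner genes, every called gene of a list (up to 5), and the 3 genes most correlated with each member, of which the first is named. Interaction and within-group values are given for members with an unadjusted p under 0.05 in any of those contrasts. The same values are given for Igf2. Kcnq1ot1 was not analysed here. The authors' own comparisons were not used. Some prostate epithelial markers are not reported here.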

Additional observations from a re-analysis of the deposited data

Results flagged for a closer look

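H19 in metastatic AS1, at 127.1 CPM, lay far from the other 3 metastatic tumors, whose highest value was 17.4 CPM. The same value of 127.1 CPM also lay far from the other 3 AS tumors, whose highest was again 17.4 CPM. On the CPM scale the gap to the nearest tumor was 0.87 of the whole range in the metastatic and 0.892 in the AS tumors, above Dixon's 95% critical value for 4 samples. On the log2(CPM + 1) scale used for the permutation tests the shares were 0.467 and 0.604, below it. Over the 8 members 32 groups of 4 tumors were examined, and chance alone gives about 1 in 20. The 2 groups that stood apart in this way are near that share. Both hold the same tumor and gene, so they are not independent of each other. Metastatic AS1 was also first of the 8 tumors in the summed fibroblast markers (213.4 CPM) and skeletal muscle markers (24.3 CPM), and in no other marker list examined. It was not first without Postn (114.6 CPM) in the first list and Tnnt3 (13.2 CPM) in the second. The part of these markers in the H19 value was not tested.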

How the results depend on the processing

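Metastatic over primary tumors gave 0 calls in all 19 alternatives, the 4 possible pairings fitted as a replicate block among them. CR over AS, with 1899 calls, gave 399 to 3784 with a tumor left out, 1193 with library totals alone, 3098 with at least 1 count as the filter and 3520 with DESeq2. The interaction, with 0 calls, gave 0 to 82 with a tumor left out, 217 with at least 1 count and 2 with DESeq2. Metastatic over primary within AS tumors gave 179 and 11 under those last settings, and within CR tumors 375 and 14, with 0 to 235 when a tumor was left out. CR over AS, with 56 calls within primary tumors, gave 7 to 387 with a tumor left out, 1132 with at least 1 count and 838 with DESeq2. Within metastatic tumors, with 68 calls, the counts were 5 to 1552, 2100 and 1654. The cause of these shifts was not tested.

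Of 374 refits of the members, 340 kept direction and side of the threshold, 13 moved past it and 21 changed sign. All 13 that moved past it were of H19. H19 by phenotype kept its sign in all 15 alternatives. It passed the threshold by edgeR with library totals alone (adjusted p = 0.0416), with at least 1 count (9.49e-35), with no tumor type term (0.0295), without primary AS2 (0.0482) and without primary CR2 (0.0410), and by DESeq2 (0.00467). With at least 1 count the log2 fold change was -3.75, near the -3.67 of the main fit. The edgeR adjusted p of 9.49e-35 is therefore not read as a stronger result. Over all 15 the adjusted p reached 0.174, and the cause of these shifts was not tested either.

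Pvt1 by tumor type turned from -0.002 to 0.019 with RLE factors, 0.014 with library totals, 0.0094 with protein-coding totals, 0.0302 with a mean of at least 100 counts, 0.0167 with DESeq2 and 0.002 with phenotype as covariate, and ran from -0.20 to 0.16 with a tumor left out. Under the same omissions, by tumor type Mir17hg ran from -0.038 to 0.39 and Rian from -0.29 to 0.35, and by phenotype Meg3 ran from -0.26 to 1.11, Rian from -0.0694 to 0.57 and Kcnq1 from -0.41 to 0.15. Neat1 in CR over AS within metastatic tumors ran from -0.16 to 0.0426, and was 0.0645 with DESeq2. In metastatic over primary within CR tumors, Neat1 ran from -0.24 to 0.55 and H19 from -1.38 to 0.51.

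The log2 ratio of Neat1 to Malat1 ran from -0.28 to 0.0467 by tumor type and from -0.0591 to 0.28 by phenotype with a tumor left out. Rian to Meg3 ran from -1.18 (without metastatic AS1, exact permutation p = 0.0286) to -0.11 by tumor type and from -0.86 to 0.15 by phenotype, and H19 to Igf2 by tumor type from -1.08 to 1.30. With library totals alone, Meg3 and Mirg had r = 0.75 (permutation p = 0.0192) and H19 and Igf2 r = -0.005. Library totals shifted the median of all genes by 0.06 by tumor type and -0.08 by phenotype on the log2 scale. In fits that left a group with 1 tumor, that tumor was assumed to vary like the others. Depth limited Mirg, Igf2, Meg3 and Rian, with at most 104 counts in any tumor.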
